A study of Mus musculus with 6 samples.

Results

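The genes described here are 10 transcription factors and cofactors of the pachytene and spermatid programmes of mouse spermatogenesis, chosen by name. They are Mybl1, Tcfl5, Rfx2, Rfx3, Rfx4, Crem, Fhl5, Sox30, Tbpl1 and Taf4b. Each was matched by its symbol in GENCODE mouse release 21 to 1 of the 55536 Ensembl genes counted in the libraries, and all 10 were among the 21465 genes with enough counts to be tested.

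Testis RNA from 3 KOStra8 and 3 HETStra8 mice, all aged 7 weeks, was sequenced with 1 library per mouse, to compare testes in which germ cells lose SEL1L, a component of ER-associated degradation, with those of littermates. KOStra8 mice carried a floxed and a deleted Sel1L allele (Sel1Lflox/∆) together with Stra8-Cre. The record of these libraries gives Sel1Lflox/∆ for HETStra8 as well and names no Cre for them, whereas the paper also counts Sel1Lflox/+;Stra8-Cre mice as HETStra8, and no genotype is given for each mouse. Stra8-Cre is driven by a promoter specific to male germ cells. Per the paper, SEL1L was still seen in spermatogonia of KOStra8 mice and was not affected in their Sertoli cells. The whole testis of a KOStra8 mouse therefore still held cells with SEL1L.

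In the male germ line, meiotic prophase and the haploid phase each run on their own transcriptional programme. MYBL1 (A-MYB) is a master activator of pachytene genes, piRNA precursors among them, and TCFL5 is a bHLH factor of the same stage. RFX factors bind the X-box of genes for cilia and flagella, and CREM with its cofactor FHL5 activates genes of spermatids. SOX30 acts around the exit from meiosis. TBPL1 (TRF2) and TAF4B are relatives of parts of the general transcription machinery, with roles in germ cells.

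The libraries held between 28875108 and 36526695 counts. Sel1l itself stood at 49.3, 47.6 and 42.4 CPM (counts scaled to a shared library size) in HETStra8 mice 1 to 3 and at 24.2, 22 and 20.3 CPM in KOStra8 mice 1 to 3, so the groups were apart in the direction of their labels. The HETStra8 mice were less alike than the KOStra8 mice. By the chi-square per gene of their counts, HETStra8 mice 1 and 2 differed by 13.7, mice 2 and 3 by 14.2 and mice 1 and 3 by 27.5, against 8.65 to 10.4 between KOStra8 mice. HETStra8 mouse 1 was the farthest from the KOStra8 mice, at 26.2 to 40.5, and HETStra8 mouse 3 the nearest to them, at 9.51 to 12.4. Fold changes also followed the base composition of transcripts, with a Spearman correlation of −0.46 between log2 fold change and GC content across 21457 genes, which are not independent replicates. For some results, values are therefore also given without HETStra8 mouse 1 or 3. They are also given after a GC and length correction, which removes the trend of each library with these features of the transcripts.

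The start regions of 3 of these genes are shown because each holds more than 1 copy of the letters that MYB proteins bind, and because 2 of these windows also carry an arm of the RFX X-box, so that they join the factors described here in sequence. Each is the 300-base window from 250 bases before to 50 bases after a RefSeq start site on GRCm38.p6, written 5′ to 3′ on the strand of the gene. Capitals mark the MYB core CNGTTG and the RFX arm GTTGCC on either strand, 2 motifs that can share the letters GTTG.
Rfx2, chr17:56830959-56831258, minus strand: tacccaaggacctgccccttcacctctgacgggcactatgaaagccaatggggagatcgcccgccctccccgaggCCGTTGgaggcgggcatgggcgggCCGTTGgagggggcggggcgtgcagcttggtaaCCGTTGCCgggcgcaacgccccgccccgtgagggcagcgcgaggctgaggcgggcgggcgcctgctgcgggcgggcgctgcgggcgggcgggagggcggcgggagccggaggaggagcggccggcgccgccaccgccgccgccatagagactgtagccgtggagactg
Tcfl5, chr2:180642642-180642941, minus strand: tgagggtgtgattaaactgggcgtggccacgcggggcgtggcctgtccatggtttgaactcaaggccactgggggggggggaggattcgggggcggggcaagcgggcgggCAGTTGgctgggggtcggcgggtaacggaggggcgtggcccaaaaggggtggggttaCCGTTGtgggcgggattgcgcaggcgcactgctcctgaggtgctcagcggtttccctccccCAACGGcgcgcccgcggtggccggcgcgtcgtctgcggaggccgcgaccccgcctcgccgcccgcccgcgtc
Rfx3, chr19:28011117-28011416, minus strand: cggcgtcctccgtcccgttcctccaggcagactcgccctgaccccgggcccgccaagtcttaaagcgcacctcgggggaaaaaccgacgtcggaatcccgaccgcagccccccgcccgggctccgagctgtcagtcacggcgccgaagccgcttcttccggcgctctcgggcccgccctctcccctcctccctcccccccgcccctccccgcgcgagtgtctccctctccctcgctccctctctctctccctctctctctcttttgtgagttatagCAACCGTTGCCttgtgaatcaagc

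The Rfx2 window held 3 MYB cores, at −175, −151 and −118 from the start site, and the last of them ran into an RFX arm at −116. The Tcfl5 window also held 3 MYB cores, at −140, −83 and −22. The Rfx3 window held a pair of overlapping MYB cores, on opposite strands, at 27 and 30, and an RFX arm at 32. Of the other genes, Rfx4 had a MYB core in 1 of its 2 windows, at −40. Of 32851 RefSeq windows of the same length, 35% held at least 1 MYB core, 1.7% held 3 or more, and 12.5% held an RFX arm. A MYB core running into an RFX arm, CNGTTGCC, was in 4.59% of windows. The core of the CRE, TGACG, to which CREM-type factors bind, was in 20.8% of windows, among them that of Rfx2 at −224 and 1 of 2 windows of Rfx4 at 17. Windows of 7 of the 10 genes were searched, and those of Fhl5, Sox30 and Tbpl1 held none of the 3 motifs. Mybl1, Crem and Taf4b were not searched. Mybl1 had no window under its symbol, and windows on chr18, where Crem and Taf4b lie, were not used for the 10 genes. The motifs were chosen after the sequences had been looked at, and a match is a description of the letters, not evidence of binding.

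Levels of the 10 genes spanned a wide range when set against exon length, as CPM per kilobase of exon over all 6 mice. Fhl5 had the highest level, at 148 ± 8.60 (SD, n = 6), followed by Tcfl5 at 104 ± 4.33. Sox30, at 82.8 ± 3.78, Tbpl1, at 78.8 ± 4.54, and Rfx2, at 66.2 ± 5.66, came next. In that run, neither Sox30 and Tbpl1 nor Tbpl1 and Rfx2 were separated in every mouse. Crem stood at 30.3 ± 1.71, Rfx4 at 21.7 ± 0.572 and Mybl1 at 15.2 ± 2.86 CPM per kilobase, each separated from the next. The lowest levels, which overlapped, were those of Rfx3, at 5.03 ± 0.380, and Taf4b, at 4.39 ± 0.471. Exon length is the union of all annotated exons of a gene, which exceeds its longest transcript unevenly. It was 7311 against 4141 bases for Rfx2, 5895 against 2931 for Crem and 3166 against 2225 for Tcfl5. For Fhl5 both were 1171 bases. The order and the separations hold for that length only, and were not computed with the longest transcript.

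**Figure D1:**
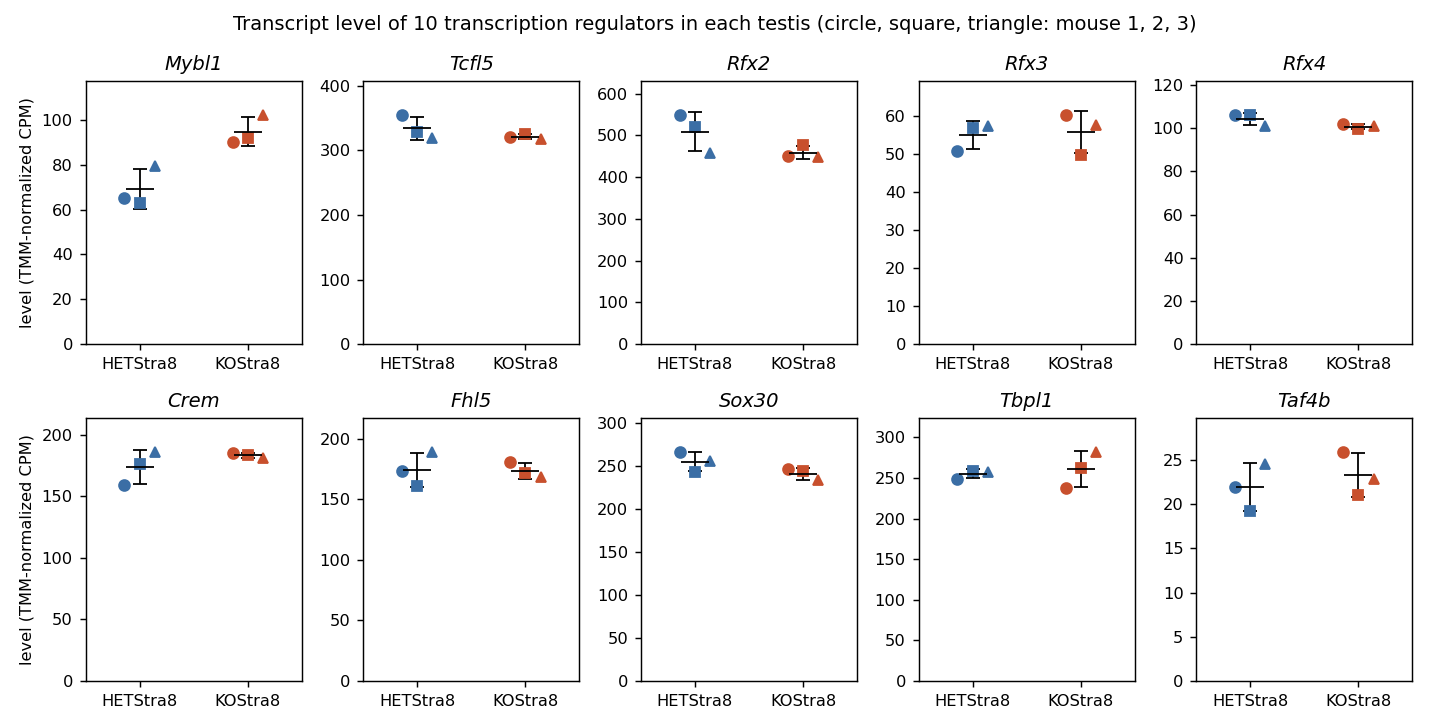
Level of the 10 genes in each mouse, 1 panel per gene, as CPM on a linear axis from 0, with circles, squares and triangles for mice 1, 2 and 3 of each group, and lines and error bars for the mean and SD (n = 3). Mybl1 is the gene whose 3 KOStra8 values, 90.0 to 102 CPM, all lie above its 3 HETStra8 values, 63.1 to 79.4 CPM, while the groups of the other 9 genes overlap.

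None of the 10 genes differed by more than 2-fold at an adjusted p below 0.01 between KOStra8 and HETStra8 testes with edgeR's quasi-likelihood test, which called 0.00932% of all genes tested. DESeq2 and limma-voom also called 0 of the 10 at these cutoffs. DESeq2, run without edgeR's filter on low counts, called 0.0167% of 35894 genes, and limma-voom called 0.00932% of 21465 genes. By its own default DESeq2 leaves out genes of low counts when it adjusts p, and the 35894 genes include those left out. At an unadjusted p below 0.05, 1 gene, Mybl1, was counted by each of the 3 tools. This is 10% of the 10 genes, against 12.3% of all genes tested with edgeR and 12.8% with limma-voom. With DESeq2 it was 7.22% of 35894 genes, or 2593 genes, against 2630 genes with edgeR. The share of 10% is near the background and is not a result about these genes as a list. The groups did not overlap in 1 of the 10 genes, again Mybl1, against 17.8% of all genes tested. The median log2 fold change (KOStra8 minus HETStra8) was 0.0072 over the 10 genes and −0.0094 over all genes tested, and 5 of the 10 lay above 0 against 48.5% of all genes. The 95% confidence intervals of the 10 genes ran from −0.31 at the lowest to 0.66 at the highest on the log2 scale, so a change of 2-fold, which is 1 on that scale, lay outside every one of them. With 3 mice against 3, an exact permutation test of a single gene cannot give a p below 0.1. In bulk tissue, fewer cells of a type and less RNA per cell cannot be told apart.

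**Figure D2:**
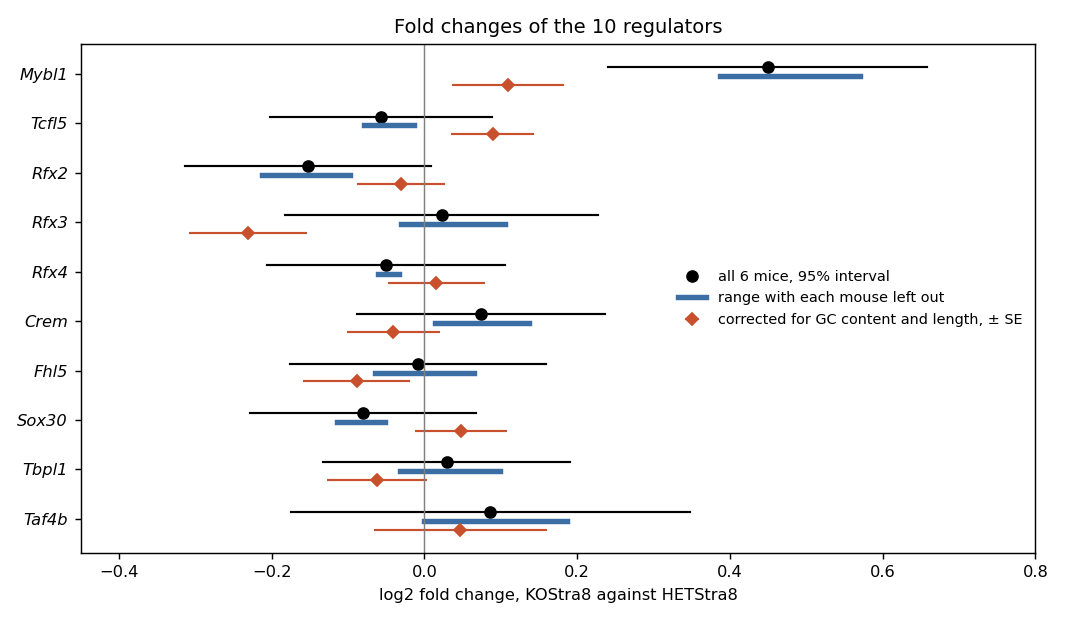
Log2 fold change (KOStra8 minus HETStra8) of each of the 10 genes from edgeR, in black with its 95% confidence interval, above the range with each mouse left out in blue and the estimate ± SE after the GC and length correction in red. Mybl1 is at 0.45 before and 0.11 after the correction, and Rfx3 at 0.023 before and −0.23 after it.

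Among the regulators of the pachytene stage, Mybl1 had the largest fold change of the 10 genes before the GC and length correction, after which that of Rfx3 was larger in size. Mybl1 (ENSMUSG00000025912, chr1:9667415-9700209, minus strand) had 65.2, 63.1 and 79.4 CPM in HETStra8 mice 1 to 3 and 90.0, 92.1 and 102 CPM in KOStra8 mice 1 to 3, from between 2048 and 3707 counts a mouse. Every KOStra8 value exceeded every HETStra8 value, and HETStra8 mouse 3 was the nearest to them. The mean was 69.2 ± 8.89 CPM in HETStra8 and 94.6 ± 6.14 CPM in KOStra8 (SD, n = 3 each), so that KOStra8 had 137% of the HETStra8 mean. The log2 fold change was 0.45 (SE 0.0972, 95% confidence interval 0.24 to 0.66), with an unadjusted p = 0.00038 and an adjusted p = 0.112 from edgeR, the 72nd smallest p of all genes tested. The exact permutation test over mice gave p = 0.1, the smallest it can give. Mybl1 is thus higher in every KOStra8 mouse, by less than 2-fold, and did not pass the adjusted threshold of 0.01.

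The call on Mybl1 depended on the fit. Its adjusted p was 0.00472 with DESeq2, and with edgeR it was 0.000151 without a filter on low counts and 0.000813 without HETStra8 mouse 3, where the log2 fold change was 0.57. These passed 0.01, as did 0.368% of 35894, 1.07% of 35894 and 2.01% of 22091 genes in the same 3 fits. The total for DESeq2 includes genes to which it gave no adjusted p. Its adjusted p ranged from 0.000151 to 0.856 over 15 alternatives. Mybl1 had the lowest GC content of the 10 genes, at 37% of its longest transcript. After the GC and length correction, its log2 fold change was 0.11 (SE 0.0733), with an edgeR adjusted p = 0.786, and between 0.064 and 0.15 when each mouse was also left out. The part of base composition in the difference was not tested.

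Genes whose values followed those of Mybl1 most closely were sought among 10012 genes with at least 10 CPM, by the root mean square difference of centred log2 CPM over the 6 mice. The closest was Atf7ip2, at a difference of 0.0301, with 34.0, 34.7 and 42.1 CPM in HETStra8 mice 1 to 3 and 47.3, 49.2 and 56.0 CPM in KOStra8 mice 1 to 3. Exoc5, a subunit of the exocyst, followed at 0.0440, and the zinc finger gene Zfp644 at 0.0442. Their log2 fold changes were 0.46 for Atf7ip2, 0.47 for Exoc5 and 0.47 for Zfp644, and 0.28, 0.084 and 0.16 after the correction. Because likeness to Mybl1 chose these 3 genes, their fold changes are a description.

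Tcfl5 (ENSMUSG00000038932, chr2:180621956-180642708, minus strand), the bHLH factor of pachytene spermatocytes, had 354, 329 and 319 CPM in HETStra8 and 320, 325 and 318 CPM in KOStra8 mice 1 to 3. The KOStra8 mice lay at the lower end of the HETStra8 range, with mouse 3 just below it, and the groups overlapped. The log2 fold change was −0.057 (SE 0.0678, interval −0.20 to 0.089, edgeR unadjusted p = 0.418), and it was 0.089 after the correction. Of the 50-base sequences in its exons, 5.77% are shared with Col9a3, an overlapping gene on the other strand, and the strand setting of the counting is not given in the sources used here.

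Of the RFX factors, Rfx2, a regulator of spermatid and flagellar genes, had the highest level per length. Rfx2 (ENSMUSG00000024206, chr17:56775897-56831013, minus strand) had 548, 521 and 459 CPM in HETStra8 and 450, 476 and 449 CPM in KOStra8 mice 1 to 3. HETStra8 mouse 3 fell among the KOStra8 mice, whereas mice 1 and 2 lay above them all. The means were 509 ± 45.6 and 458 ± 15.6 CPM (SD, n = 3 each), and the log2 fold change was −0.15 (SE 0.0748, interval −0.31 to 0.0080, edgeR unadjusted p = 0.0605, adjusted p = 0.422). The estimate rested on which HETStra8 mice were kept. Without mouse 3 it was −0.21, with an edgeR adjusted p = 0.0754 and an unadjusted p = 0.00502, and 19.8% of all genes tested were below an unadjusted p of 0.05 in that fit. Without mouse 1 it was −0.098, with an edgeR unadjusted p = 0.189 and an adjusted p = 0.758. After the correction it was −0.031 (SE 0.0576).

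Rfx3 (ENSMUSG00000040929, chr19:27761721-28011166, minus strand), best known as a regulator of ciliary genes, had 50.9, 56.8 and 57.4 CPM in HETStra8 and 60.2, 49.7 and 57.7 CPM in KOStra8 mice 1 to 3. KOStra8 mice 1 and 2 were the highest and the lowest of all 6, so the groups overlapped. The log2 fold change was 0.023 (SE 0.0955, interval −0.18 to 0.23). After the correction it was −0.23 (SE 0.0770, unadjusted p = 0.00921, adjusted p = 0.476 from edgeR), which made Rfx3 the only 1 of the 10 genes with an unadjusted p below 0.05 in that fit, against 7.58% of all genes tested. Rfx3 is a gene of low GC content, at 40.2%, like Mybl1, and its sign turned with the correction.

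Rfx4 (ENSMUSG00000020037, chr10:84756062-84906538, plus strand), which has a testis form beside that of the brain, had 106, 106 and 101 CPM in HETStra8 and 102, 99.5 and 101 CPM in KOStra8 mice 1 to 3. The spread over all 6 mice was small and the groups overlapped at their edges. The log2 fold change was −0.050 (SE 0.0728, interval −0.21 to 0.11).

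The spermatid activator Crem (ENSMUSG00000063889, chr18:3266048-3337748, minus strand) had 159, 176 and 186 CPM in HETStra8 and 185, 184 and 181 CPM in KOStra8 mice 1 to 3. All KOStra8 values lay inside the HETStra8 range. The log2 fold change was 0.075 (SE 0.0757, interval −0.088 to 0.24, edgeR unadjusted p = 0.342). The gene has 39 annotated transcripts, which encode activators and repressors, and counts per gene do not separate these. Of its 50-base sequences, 5.72% are shared with Gm6225, which overlaps it on the other strand.

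Fhl5 (ENSMUSG00000028259, chr4:25199908-25242876, minus strand), the LIM-only coactivator of CREM also known as ACT, had 173, 161 and 189 CPM in HETStra8 and 181, 172 and 168 CPM in KOStra8 mice 1 to 3. Again the KOStra8 values lay inside the HETStra8 range. With a log2 fold change of −0.0083 (SE 0.0783, interval −0.18 to 0.16), Fhl5 had the smallest difference of the 10 genes before the correction, at 99.4% of the HETStra8 mean. After it the log2 fold change was −0.089 (SE 0.0701), larger in size than that of 6 of the other genes.

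Sox30 (ENSMUSG00000040489, chr11:45980310-46017994, plus strand), a SOX factor needed for round spermatid genes, had 266, 243 and 256 CPM in HETStra8 and 246, 244 and 233 CPM in KOStra8 mice 1 to 3. HETStra8 mouse 2 fell among the KOStra8 mice. Its log2 fold change was −0.081 (SE 0.0689, interval −0.23 to 0.067, edgeR unadjusted p = 0.26), and it was 0.048 after the correction.

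Tbpl1 (ENSMUSG00000071359, chr10:22703879-22731938, minus strand), the TBP-related factor of spermatids, had 249, 259 and 258 CPM in HETStra8 and 238, 262 and 282 CPM in KOStra8 mice 1 to 3. KOStra8 mice 1 and 3 were the lowest and the highest of all 6. The log2 fold change was 0.029 (SE 0.0756, interval −0.13 to 0.19). Of its 50-base sequences, 11.1% are shared with Slc2a12, which overlaps it on the other strand, and reads from these sequences could be counted on either gene unless strand was used.

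Taf4b (ENSMUSG00000054321, chr18:14783245-14900359, plus strand), the germ cell paralog of the TFIID subunit TAF4, had the fewest counts, between 608 and 906 a mouse. It had 22, 19.2 and 24.6 CPM in HETStra8 and 25.9, 21 and 22.9 CPM in KOStra8 mice 1 to 3, and the groups overlapped. Its log2 fold change of 0.087 had the widest interval of the 10 genes, −0.17 to 0.35 (SE 0.122).

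The order of the fold changes among the 10 genes can be set beside their GC content. Genes under 40% GC had a median log2 fold change of 0.31, and Mybl1 is among them. In the band of 40% to 45%, which holds Rfx3, Crem and Tbpl1, the median was 0.14, and in that of 45% to 50%, with Fhl5 and Taf4b, it was 0.012. It was −0.090 from 50% to 55%, where Rfx2, Rfx4 and Sox30 lie, and −0.14 above that, where Tcfl5 lies. The 5 genes above 0 before the correction were Mybl1, Rfx3, Crem, Tbpl1 and Taf4b, and after it, with 49.7% of all genes tested above 0, they were Mybl1, Tcfl5, Rfx4, Sox30 and Taf4b.

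**Figure D3:**
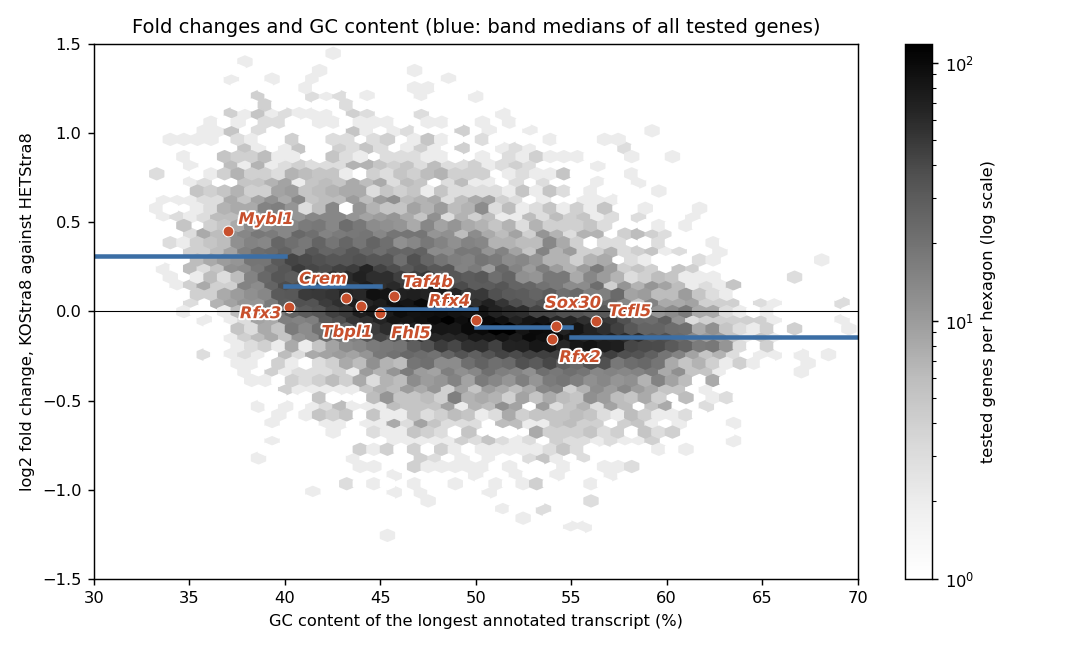
Log2 fold change against the GC content of the longest annotated transcript (%), with the number of tested genes per hexagon in grey on a log scale, the median of each GC band as a blue line and the 10 genes as labelled points. Genes beyond the ends of either axis are not drawn, and the band medians run from 0.31 under 40% GC to −0.14 above 55%.

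Among paralogs and partners of the 10 genes, Kif17 had the smallest p. Of 26 such genes, all tested, 4 reached an unadjusted p below 0.05, 2 higher and 2 lower. This is 15.4%, against 12.3% of all genes tested, and the median log2 fold change was −0.0079. Kif17, a kinesin that partners FHL5 in spermatids, stood at 570 ± 10.4 CPM in HETStra8 and 470 ± 13.7 CPM in KOStra8, at −0.28 (edgeR unadjusted p = 0.000537), and at −0.12 after the correction (unadjusted p = 0.0494). Rfx1 was at −0.24, Creb1, a CRE-binding activator, at 0.39, and Rfx7 at 0.25, and after the correction these were at −0.085, 0.094 and 0.085, none below an unadjusted p of 0.05. Fhl4, a testis LIM-only relative of Fhl5, had the highest level of this list, at 2300 ± 67.3 CPM in HETStra8 and 2330 ± 21 CPM in KOStra8. Its log2 fold change was 0.014 before the correction and −0.18 after it (edgeR unadjusted p = 0.00645), then the smallest p of the list. No gene of this list passed an adjusted p of 0.05.

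Subunits of the general transcription factors TFIID and TFIIA, and relatives of these, were tested for 19 of 20 genes, since Tbpl2 had no count. Of these, Taf6 alone reached an unadjusted p below 0.05, with 111 ± 7.88 CPM in HETStra8 and 93.4 ± 1.11 CPM in KOStra8, at −0.24 (edgeR unadjusted p = 0.00804), or 5.26% against 12.3% of all genes tested. After the correction Taf6 was at −0.10 (unadjusted p = 0.137), and Gtf2a2, a TFIIA subunit named here after its value was seen, was the gene below 0.05, at −0.23 (edgeR unadjusted p = 0.0136). The median was 0.020. Gtf2a1l, the germ cell form of a TFIIA subunit, had 261 ± 15.9 and 255 ± 10.3 CPM, and Tbp had 145 ± 6.85 and 149 ± 11.4 CPM.

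Among 26 other regulators of spermatogenic transcription, 3 reached an unadjusted p below 0.05, 2 higher and 1 lower, or 11.5% against 12.3% of all genes tested, with a median of 0.014. Scml2, a polycomb protein of germ cells, was at 0.37, and Brdt, the bromodomain reader of meiotic cells, at 0.23, and after the correction they were at 0.20 and 0.17, with edgeR unadjusted p = 0.081 and 0.0422. Ybx2, a germ cell RNA-binding protein, was at −0.15, and at −0.019 after the correction, with 1750 ± 82.6 CPM in HETStra8 and 1570 ± 54.5 CPM in KOStra8. Spz1, a bHLH factor, had 1140 ± 139 and 1190 ± 71.8 CPM.

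The genes on which these factors act were described in the same way. Of 14 piRNA pathway genes of the MYBL1 programme, 3, all higher, reached an unadjusted p below 0.05, or 21.4% against 12.3% of all genes tested, and the median was −0.0072. Stk31, a tudor domain protein, stood at 66.7 ± 10.5 CPM in HETStra8 and 88.2 ± 2.89 CPM in KOStra8, at 0.40 (edgeR unadjusted p = 0.00142) and at 0.19 after the correction (unadjusted p = 0.0265). Asz1, a germ granule protein, was at 0.34, and turned to −0.032 after the correction, and Tdrd12 was at 0.25 and then 0.16. With the correction 7.14% of the list were below that p, against 7.58% of all genes tested. Mael, with 980 ± 10.4 and 974 ± 5.64 CPM, and Tdrd6, with 1140 ± 131 and 1110 ± 47.3 CPM, were at −0.0090 and −0.041 before it.

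Of 22 ciliary and flagellar genes of the kind RFX factors control, 8 reached an unadjusted p below 0.05, 5 higher and 3 lower, or 36.4% against 12.3% of all genes tested, and the median was −0.074. Without HETStra8 mouse 1 there were 4, or 18.2% against 8.64% of all genes tested, and without HETStra8 mouse 3 there were 12, or 54.5% against 19.8%. Dync2h1, the heavy chain of the motor for retrograde ciliary transport, stood at 192 ± 5.67 CPM in HETStra8 and 248 ± 15.2 CPM in KOStra8, at 0.37 (edgeR unadjusted p = 0.000161, adjusted p = 0.0887). Tekt4, a tektin of the sperm tail, was at −0.27, with 268 ± 7.50 and 222 ± 10.4 CPM. Alms1, a basal body protein, was at 0.23 and Stk36, a kinase of motile cilia, at −0.17, and after the correction they were at 0.042 and −0.048. The 2 most abundant, Ift140 and Ift172, both of intraflagellar transport, were at −0.20 and −0.17. After the correction, 9.09% of the list were below that p, against 7.58% of all genes tested. These were Dync2h1 at 0.18 (unadjusted p = 0.0164) and Tekt4 at −0.14 (unadjusted p = 0.0417).

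Of 10 postmeiotic genes of the CREM programme, 2, both lower, reached an unadjusted p below 0.05, or 20% against 12.3% of all genes tested, and the median was −0.052. Gapdhs, the glycolytic enzyme of the sperm tail, was at −0.20, with 1440 ± 20.3 CPM in HETStra8 and 1260 ± 67.3 CPM in KOStra8, and Ace, which has a testis form, was at −0.16. Prm2, a protamine, had 4130 ± 206 and 3940 ± 402 CPM, and Tnp2, a transition protein, 2610 ± 140 and 2600 ± 218 CPM. With the correction, 0 of the 10 were below an unadjusted p of 0.05.

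Over the 6 lists without the 10 genes themselves, 21 of 117 genes tested, or 17.9%, were below an unadjusted p of 0.05 with edgeR, against 12.3% of all genes tested. Of these 12 were higher and 9 lower, and with all 6 mice 0 passed an adjusted p of 0.05. With the correction there were 10, or 8.55% against 7.58% of all genes tested, and 5 genes were in both counts, which is 23.8% of the former and 50% of the latter. These were Kif17, Brdt, Stk31, Dync2h1 and Tekt4. Without HETStra8 mouse 3, an adjusted p below 0.05 from edgeR was reached by 1082 of 22091 genes tested. Among them were 3 of 26 relatives, 1 of 19 TFIID and TFIIA subunits and 2 of 26 other regulators. Of the piRNA, ciliary and CREM lists, 3 of 14, 6 of 22 and 0 of 10 were among them.

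**Figure D4:**
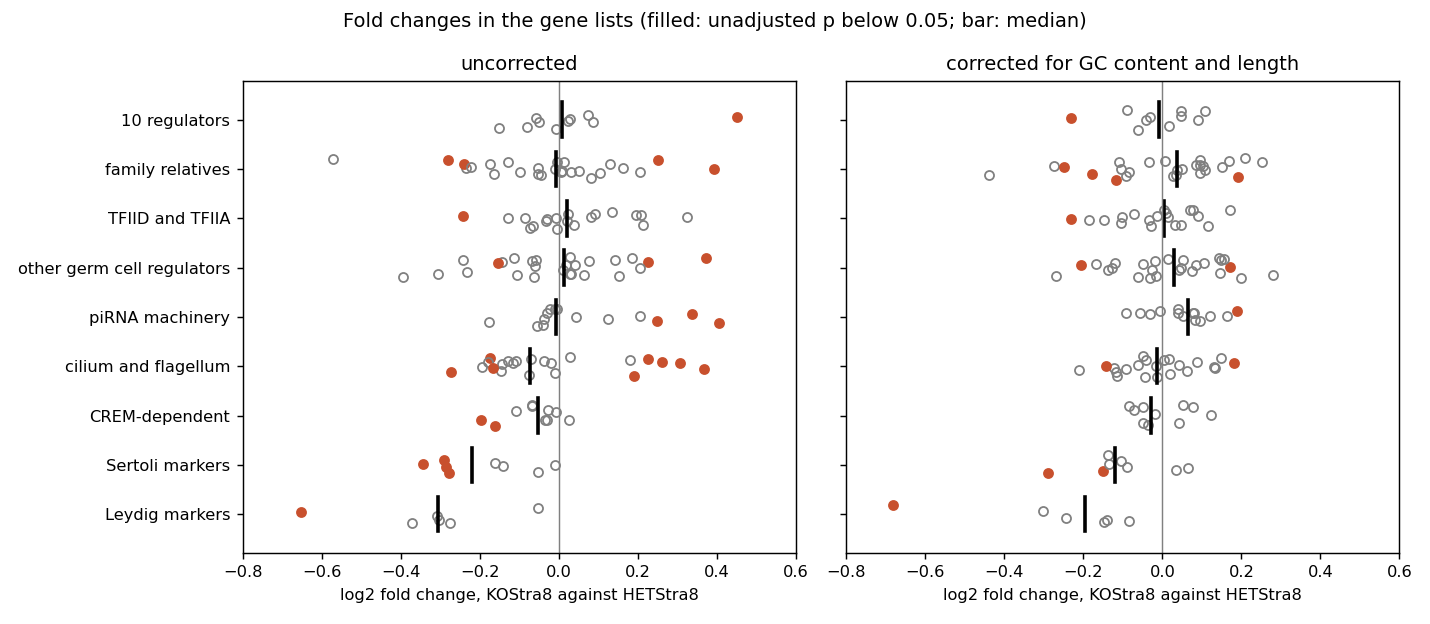
Log2 fold change (KOStra8 minus HETStra8) of the tested genes in the 10 genes' own row, the 6 lists and the Sertoli and Leydig markers, uncorrected on the left and corrected for GC and length on the right, with points for genes, filled where the unadjusted p is below 0.05, and bars for medians. Uncorrected medians of the 6 lists lie between −0.074 for ciliary genes and 0.020 for TFIID and TFIIA subunits, beside −0.0094 for all genes tested.

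The cell types in which these factors act were followed by their markers. Of 8 pachytene and diplotene markers, 0 were below an unadjusted p of 0.05 with edgeR, and their summed level was 6770 to 6930 CPM in HETStra8 and 6540 to 6990 CPM in KOStra8. Round spermatid markers summed to 1050 to 1170 CPM in HETStra8 and 1090 to 1150 CPM in KOStra8, with 0 of 8 below that p. Markers of elongating spermatids, 0 of 8, summed to 12500 to 12700 and 11300 to 12900 CPM. These ranges overlapped between the groups for every germ cell stage, those of leptotene and zygotene (338 to 350 and 333 to 346 CPM) and of spermatogonia (94.4 to 99.0 and 87.8 to 97.7 CPM) included. None of these germ cell markers was at 0 in all libraries. With the GC and length correction, 2 of the 8 pachytene and diplotene markers were lower below that p, or 25% against 7.58% of all genes tested. These were Ldhc at −0.12 (edgeR unadjusted p = 0.0493) and Pgk2 at −0.15 (edgeR unadjusted p = 0.0221). Both are glycolytic enzymes of germ cells and both were named here after their values were seen. Without HETStra8 mouse 3, 2 of these 8 and 3 of the 8 round spermatid markers were higher below that p, or 25% and 37.5% against 19.8% of all genes tested.

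Somatic markers had fold changes mostly below 0. All 8 Sertoli cell markers had a fold change below 0, with a median log2 fold change of −0.22. Of these 4, or 50%, had an unadjusted p below 0.05 with edgeR, against 12.3% of all genes tested. They summed to 1110 to 1320 CPM in HETStra8 and 928 to 1050 CPM in KOStra8, without overlap. Most of that sum was Clu, with 775 ± 95.2 CPM in HETStra8 and 639 ± 56.6 CPM in KOStra8. Sox9 and Wt1 had the smallest fold changes of the 8, at −0.010 and −0.052, and are named here after their values were seen. Single genes had no overlap in 17.8% of all genes tested. With the GC and length correction the Sertoli median was −0.12 and 2 of the 8, Sox9 and Wt1, were above 0, at 0.035 and 0.064. In that fit 2 of the 8, or 25%, were below that p, against 7.58% of all genes tested. All 6 Leydig cell markers were below 0 before and after the correction, with medians of −0.31 and −0.20. In each fit 1 of them was at that p, or 16.7%, against 12.3% and 7.58% of all genes tested. They summed to 510 to 765 CPM in HETStra8 and 426 to 545 CPM in KOStra8. Of 5 myoid, 5 macrophage, 5 endothelial and 4 blood markers, 1, 1, 0 and 0 were lower at that p before the correction. The summed ranges of the groups overlapped in each. Of the epididymis markers 1 of 5 was tested, and Lcn8 was at 0. HETStra8 mouse 1 stood apart in others of them, with Crisp1 at 7.00 CPM against at most 0.327 CPM in any other mouse and Adam7 at 1.40 CPM against 0. It was also the highest of the 6 mice for Insl3 and Cyp17a1 of Leydig cells, at 83.7 and 317 CPM, and for Clu of Sertoli cells, at 885 CPM. These 5 markers were named after their values were seen. Without that mouse 7 of 8 Sertoli markers were below 0, 4 of them below that p with edgeR, against 8.64% of all genes tested. In that fit 4 of 6 Leydig markers were below 0, 0 of them below that p. Without HETStra8 mouse 3 all 6 Leydig markers were below 0, with a median of −0.43. Of these 1 was below that p, or 16.7% against 19.8% of all genes tested. With the replicate number as a block in the fit, all 6 were below 0 and 4 were below that p. This is 66.7%, against 12.3% of all genes tested. The part of these shifts in the differences of Mybl1 and the other genes was not tested.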

How the data were processed

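The authors deposited raw counts of reads per Ensembl gene, without normalization, for each of the 6 testis libraries. The submitters' processing notes list STAR 2.7.1a, Picard 2.20.4, StringTie 2.0.4 and featureCounts 1.6.0 among the tools and mm10 as a build, and which tool made the counts, with which strand setting, is not given in the sources used here. Directional libraries were read in paired ends. Symbols, positions, lengths and GC content came from GENCODE mouse release 21 on GRCm38, and start windows from RefSeq on GRCm38.p6.

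The comparison used edgeR 4.0.16 under R 4.3.3 (filterByExpr, TMM, robust quasi-likelihood fit on genotype, two-sided test, Benjamini-Hochberg adjustment over all 21465 genes tested). CPM are TMM-normalized, and centred log2 CPM used a prior count of 2. The cutoffs were those of the study, 2-fold with an adjusted p below 0.01. The study, whose text names no tool for this comparison, reported many more genes past them than the 2 called here with edgeR. Alternatives were DESeq2 1.42.0, limma-voom (limma 3.58.1), other scaling and filters, the replicate number as a block, each mouse left out in turn, and offsets for GC content and transcript length from a loess curve per library (span 0.3, genes above a log2 CPM of 2). Single genes were also compared by an exact permutation test over mice. The 6 libraries differed pairwise by more than sampling noise. In counts simulated from these libraries, with 194 of 21041 genes altered by a log2 of 1.5, edgeR called 72.7% of the altered genes and 5 others.

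The 10 genes and the gene lists were chosen with earlier results of these data known. Named from each list were the 2 genes with the highest CPM and up to 4 with the smallest unadjusted p below 0.05, and, for Mybl1, the 3 genes with the most similar values. Sequence shared between genes was counted over the 50-base sequences of their exons. Level per length is CPM per kilobase of exon, over the union of all annotated exons of a gene.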

Additional observations from a re-analysis of the deposited data

How the results depend on the processing

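None of the 10 genes was called past 2-fold with an adjusted p below 0.01 under any alternative run. Over all genes, 2 were called, against 39 without a filter on low counts, 6 with DESeq2, 4 at an adjusted p of 0.01 and 5 at 0.05 with any fold, and 1 to 44 with each mouse left out, the 44 without HETStra8 mouse 3. Of the 10 genes, 1 to 2 were below an unadjusted p of 0.05 with each mouse left out (2 without HETStra8 mouse 3), and 0 to 1 with the GC and length correction as well, an alternative chosen after seeing the data (0 without KOStra8 mouse 2, when Rfx3 had an edgeR unadjusted p = 0.0519). Over the 6 lists the count of 21 was 10 with the correction, 10 with the correction and the block, and 11 to 35 with each mouse left out, from 11 without KOStra8 mouse 3 to 35 without HETStra8 mouse 3. The share of all genes tested below that p moved as well, from 12.3% to 7.58% with the correction and to 19.8% without HETStra8 mouse 3. Over the 10 genes and 15 alternatives each, 126 of the log2 fold changes kept their direction and side of the adjusted threshold, 3, all of Mybl1, newly passed it, and 21 changed sign. The correction, without and with the block, turned Tcfl5 to 0.089 and 0.089, Rfx3 to −0.23 and −0.23, Rfx4 to 0.016 and 0.016, Crem to −0.041 and −0.041, Sox30 to 0.048 and 0.049, and Tbpl1 to −0.062 and −0.065. Library totals as scaling turned Fhl5 to 0.0035. Leaving out each mouse gave −0.031 to 0.11 for Rfx3, −0.064 to 0.065 for Fhl5, −0.032 to 0.099 for Tbpl1, −0.0002 to 0.19 for Taf4b, −0.080 to −0.013 for Tcfl5, −0.21 to −0.098 for Rfx2, −0.061 to −0.034 for Rfx4, 0.014 to 0.14 for Crem and −0.11 to −0.051 for Sox30. With the correction as well, the ranges were 0.077 to 0.11 for Tcfl5, −0.065 to −0.0011 for Rfx2, −0.27 to −0.19 for Rfx3, 0.0092 to 0.025 for Rfx4, −0.066 to −0.018 for Crem, 0.0097 to 0.089 for Sox30, −0.11 to −0.0039 for Tbpl1, −0.14 to −0.058 for Fhl5 and −0.038 to 0.12 for Taf4b. The cause of these changes was not tested, apart from those that the correction makes by its construction.

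With 3 mice a group, correlations of their deviations cannot decide whether the replicate numbers pair the mice. Deviations from the group means correlated at −0.073, −0.119 and 0.177 between HETStra8 and KOStra8 mice with the same number over 13124 genes, and HETStra8 mice 1, 2 and 3 correlated best with KOStra8 mice 2, 1 and 3. With the number as a block, 5 genes were called over all genes and 0 of the 10, and Mybl1 had an adjusted p of 0.0287 from edgeR. At an edgeR adjusted p below 0.05 with any fold, there were 175 genes over all genes with the block, against 5 without it.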
